A study of Mus musculus with 32 samples.

Results

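The 10 genes Tdh, Gcat, Gldc, Shmt1, Shmt2, Mthfd1, Mthfd2, Phgdh, Psat1 and Psph of threonine, serine and one-carbon metabolism were followed through all 16 groups of a mouse chemical reprogramming study. They were chosen by symbol. In GENCODE M21 these 10 symbols name 11 of the 55401 Ensembl genes listed in each of the 5 expression tables, because Gcat is the symbol of 2 overlapping genes, and the one with the higher RNA level in every library was used as Gcat. RNA was sequenced from 32 libraries, 2 per group. OG2X129 embryonic fibroblasts were taken through chemical reprogramming to pluripotency in a medium that all reprogramming groups shared, with VPA, CHIR99021, 616452, Parnate, Forskolin, the retinoic acid receptor agonist AM580, EPZ004777 and vitamin C. One table held cultures with CD3254 (CD), an agonist of the retinoid X receptors, and cultures with the solvent DMSO. Another held Rxra overexpression (Rxra OE) and its control (CTR, labelled WT OE), and another held Exosc3 knockdown by short hairpin RNA (shE3) and a control hairpin (shCTR). Exosc3 encodes a subunit of the RNA exosome, which degrades RNA from its 3′ end. Another followed CD and DMSO cultures at 0, 4 and 8 h of actinomycin D, which blocks transcription. The last held induced pluripotent cells derived with CD (CD iPSC) or DMSO (DMSO iPSC, titled DMSP), mouse embryonic fibroblasts (MEF) and R1 embryonic stem cells from a mouse blastocyst. The labels give the MEF libraries the genotype WT shRNA and the treatment of the reprogramming cultures, and they give no day of reprogramming, no age of the embryos, no clone number for the iPSC and no statement on whether replicates were separate cultures. Every p-value therefore measures only the spread between these libraries, which may be technical.

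The members belong to a network that makes and spends single carbon units on folate. Threonine dehydrogenase (Tdh) and glycine C-acetyltransferase (Gcat) together split threonine into glycine and acetyl-CoA in mitochondria, and Gldc, the decarboxylase of the glycine cleavage system, passes a carbon from glycine to folate. Mouse embryonic stem cells are known for high Tdh and for their need of threonine. Phgdh, Psat1 and Psph carry out the consecutive steps that make serine from a glycolytic intermediate. Shmt1 in the cytosol and Shmt2 in mitochondria interconvert serine and glycine while loading folate with a carbon, and Mthfd1 in the cytosol and Mthfd2 in mitochondria interconvert the loaded folates that feed purine and thymidylate synthesis.

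On the GRCm38 assembly Tdh lies at chr14:63492347-63509092, Gcat at chr15:79030874-79038353 and Gldc at chr19:30098447-30175429. Shmt1 lies at chr11:60788104-60811718, Shmt2 at chr10:127517123-127522444, Mthfd1 at chr12:76255298-76319803 and Mthfd2 at chr6:83305691-83325908. The serine synthesis genes Phgdh, Psat1 and Psph lie at chr3:98313170-98339990, chr19:15904678-15947337 and chr5:129765558-129787449. Gcat and Mthfd1 are on the plus strand and the other 8 on the minus strand, and all are protein-coding. Whether reads were counted by strand is not given in the sources used here, so reads from genes that overlap on opposite strands cannot be told apart. The widest such overlap was that of Psph with Cct6a, a chaperonin subunit gene on the opposite strand that reached 595 TPM (transcript abundance per transcript length, scaled to a fixed total per library) and shared 452 of the 4329 exon bases of Psph, so that an unknown part of the Psph level could come from Cct6a. The second Gcat gene shared 1132 of the 2384 exon bases of Gcat. It stood at 1.43 TPM or lower in the TPM tables, but its 294 to 640 recovered reads in the actinomycin D table lay near the 372 to 769 of Gcat, so Gcat is uncertain there.

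Promoter letters are shown for 4 members, the pairs Gldc with Mthfd1 and Phgdh with Psat1, whose levels moved together across the groups (Pearson's r of 0.96 and 0.87). Pairs closer than the second are not shown, among them Mthfd2 with Psph (0.89) and Shmt1 with Mthfd1 (0.88). The stretches are the 150 bases just before the gene's start in RefSeq (GRCm38.p6), written 5′ to 3′ on the gene's strand, with capitals marking the CCAAT box or its reverse complement ATTGG.
Gldc (chr19:30175442-30175591, minus strand): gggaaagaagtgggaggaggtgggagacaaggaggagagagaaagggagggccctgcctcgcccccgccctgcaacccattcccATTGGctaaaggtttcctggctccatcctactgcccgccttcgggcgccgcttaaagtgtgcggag
Mthfd1 (chr12:76255082-76255231, plus strand): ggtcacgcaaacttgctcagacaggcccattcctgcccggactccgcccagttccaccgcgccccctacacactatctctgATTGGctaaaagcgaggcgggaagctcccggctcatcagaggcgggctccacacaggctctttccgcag
Phgdh (chr3:98339970-98340119, minus strand): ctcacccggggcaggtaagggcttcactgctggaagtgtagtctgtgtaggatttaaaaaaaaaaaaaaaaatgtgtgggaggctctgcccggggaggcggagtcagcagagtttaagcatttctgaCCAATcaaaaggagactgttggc
Psat1 (chr19:15925060-15925209, minus strand): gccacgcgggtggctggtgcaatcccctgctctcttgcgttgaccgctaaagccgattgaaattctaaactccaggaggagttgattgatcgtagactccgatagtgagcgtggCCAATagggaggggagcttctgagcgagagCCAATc
Gldc and Mthfd1 each held the motif once, as ATTGG, with its first base 66 and 69 bases before the start. Phgdh held it at 23 bases and Psat1 at 36 and 6 bases before the start, as CCAAT. In GENCODE the last 21 of the Phgdh bases fall in a transcribed exon, and RefSeq gives Psat1 another start, whose preceding 150 bases held no match. Both Psat1 stretches lie inside the GENCODE span given above for that gene, not before it, with 0 bases in its exons. Both strands were searched from 250 bases before to 50 after the start. A member gene counted if any of its windows matched, so a gene with several starts had more chances than a single window. CCAAT was in a window of 7 of the 9 member genes listed (not in Gcat or Shmt2) and in 37.4% of all 32851 windows. The E-box CACGTG was in 1 of the 9, Gcat, against 7.15% of all windows, and the C/EBP-ATF response element TGATGNAA in 0 of the 9, against 3.97%. No member held more than 1 of the 3 motifs, so no matches of different motifs overlapped. A match is a description and no evidence of binding. Tdh had no entry.

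Levels are given as deposited, as TPM or, for the actinomycin D table, as CPM (reads scaled to a fixed total per library, not per length), which is compared only within a gene. Log2 changes are from limma on log2(value + 1), first group minus second with the standard error (SE), relative to the median gene of the table. A gene is said to rise or fall only where its Benjamini-Hochberg adjusted p over all tested genes was under 0.05. All 10 members passed the filter on low values (1 or more in at least 2 libraries) in every table. Mitochondrially encoded RNAs took 52.9 to 57.1% of TPM in the CD table and 50.9 to 62% in the Rxra OE table, against 11.8 to 15.5% in the shE3 table and 7.46 to 17.4% in the iPSC table, so levels are compared within tables only. Before rescaling, the median gene was 0.18 log2 units higher in CD than DMSO and 0.62 higher in Rxra OE than CTR, 0.19 higher in CD than DMSO before actinomycin D, 0.11 higher in R1 than MEF and 0.13 lower in DMSO iPSC than R1 (a shift of -0.13). The depth of the TPM tables is unknown. The actinomycin D table held 15382821 to 24186485 recovered reads per library and 145 to 3881 reads for each member. Rxra stood at 21.7 TPM in both Rxra OE libraries against 8.70 and 9.57 in CTR (log2 change 0.47 ± 0.06, adjusted p = 0.000957). Exosc3 stood at 5.97 and 4.01 TPM in shE3 against 8.86 and 10.2 in shCTR (-0.79 ± 0.17, adjusted p = 0.0221).

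In reprogramming cultures, 9 of the 10 members were higher with CD3254 than with DMSO relative to the median gene, and Mthfd2 was the one that did not pass. The largest change was that of Tdh, which stood at 75.0 and 77.0 TPM with CD and at 10.6 and 11.5 with DMSO. Its libraries lay far apart between the groups, with a log2 change of 2.48 ± 0.04 (adjusted p = 2.41e-05), so that Tdh went from below Shmt2, Phgdh and Psat1 to the most abundant member per transcript length. Phgdh, the first enzyme of serine synthesis, stood at 35.7 and 39.1 TPM against 14.1 and 15.9 (1.06 ± 0.06, adjusted p = 0.000133). Shmt1 stood at 8.29 and 8.79 TPM against 3.52 and 3.49 (0.90 ± 0.07, adjusted p = 0.00032). The other 6 members that rose did so by less: Mthfd1 by 0.56, Shmt2 by 0.52, Psph by 0.44, Gcat by 0.35, Gldc by 0.34 and Psat1 by 0.26 log2 units. Mthfd2 stood at 8.63 and 8.30 TPM against 7.72 and 5.87 (0.10 ± 0.14, adjusted p = 0.554). Its value rested on the DMSO libraries, at 0.31 without DMSO replicate 1 (adjusted p = 0.0425) and -0.10 without DMSO replicate 2 (0.374). The groups did not overlap for any member as deposited, and the share of all genes without overlap was not counted. After rescaling, the CD mean of Mthfd2 lay between its DMSO libraries. The median log2 change of the members was 0.48, against 0.00 over the 13006 genes tested, of which 30.5% were called higher and 31.1% lower. The call for Gcat was lost without CD replicate 2 (adjusted p = 0.0556), without DMSO replicate 2 (0.0801) and with no filter on low values (0.0758).

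Other genes around the pathway changed in both directions with CD. Of the purine synthesis genes, 8 of 13 were higher and 2 lower, among them Impdh2, which commits purines to guanine nucleotides (57.0 against 31.9 TPM, 0.61 ± 0.04, adjusted p = 0.000255), and Paics (74.8 against 45.8 TPM). Of the folate genes outside the members, 4 of 14 were higher and 5 lower, and Aldh1l1, a cytosolic formyl-folate dehydrogenase, fell (11.7 against 25.8 TPM, -1.28 ± 0.06, adjusted p = 9.01e-05). Of the other glycine and serine genes 3 of 11 were higher and 4 lower, and of the methionine cycle genes 4 of 11 higher and 2 lower. Cth, which makes cysteine from cystathionine, rose from 2.04 to 7.73 TPM (1.36 ± 0.07, adjusted p = 0.000105). Of 28 ATF4 and amino acid response genes, 11 were higher and 10 lower. Cell cycle genes were higher in 21 of 22 cases. All 9 markers of extraembryonic endoderm (XEN-like) cells and all 6 epithelial markers were higher and all 11 fibroblast markers lower: the summed XEN-like level was 1469 and 1507 TPM with CD against 368 and 408 with DMSO, and the summed fibroblast level 954 and 985 against 1447 and 1521. No XEN-like or fibroblast marker was at 0. Their part in the member changes was not tested, and in such bulk samples more cells of a type and more RNA per cell cannot be told apart.

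With Rxra overexpression all 10 members rose against the control. Tdh stood at 37.1 and 35.8 TPM against 4.73 and 5.55, a log2 change of 1.93 ± 0.07 (adjusted p = 1.21e-05). Shmt1 stood at 13.9 and 14.1 TPM against 2.42 and 2.77 (1.44 ± 0.07, adjusted p = 3.41e-05). Phgdh stood at 51.3 and 53.6 TPM against 11 and 12.1 (1.37 ± 0.06, adjusted p = 2.06e-05). These 3 were also the 3 largest changes with CD. Gldc rose by 0.77, Shmt2 by 0.75, Mthfd2 by 0.72, Mthfd1 by 0.63, Psph by 0.44, Gcat by 0.43 and Psat1 by 0.36 log2 units. Their groups did not overlap as deposited, a scale on which the median gene itself was 0.62 higher with Rxra OE. The share of all genes without overlap was not counted. Mthfd2, which missed the threshold with CD, stood at 13.6 and 13.9 TPM against 3.91 and 5.56 (adjusted p = 0.00255), but the difference between the CD and the Rxra OE change was not tested. The median of the members was 0.73, against 0.01 over 13305 genes, of which 35.1% were called higher and 35.5% lower. The call for Psph was lost without CTR replicate 1 (0.27, adjusted p = 0.0561), without Rxra OE replicate 2 (0.0957) and with no filter (0.0919).

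Around the pathway, 8 of 13 purine synthesis genes were higher with Rxra OE and 2 lower, 6 of 11 methionine cycle genes were higher and 2 lower, and 4 of 14 folate genes were higher and 4 lower. Cth stood at 19.4 against 1.27 TPM (2.61 ± 0.13, adjusted p = 3.43e-05), and Mthfd1l, the mitochondrial formyl-folate synthetase, at 12.4 against 3.70 TPM (0.87 ± 0.07, adjusted p = 0.000179). The other glycine and serine genes split into 5 higher and 5 lower of 13, with Tha1, a threonine aldolase, at 6.91 against 0.873 TPM (1.57 ± 0.09, adjusted p = 4.42e-05). Of 28 ATF4 and amino acid response genes 14 were higher and 10 lower, and Pycr1, a proline synthesis enzyme, stood at 46.9 against 9.23 TPM (1.52 ± 0.06, adjusted p = 1.5e-05). The cell cycle list was higher in 21 of 22 cases, the XEN-like list in 8 of 9 and the epithelial list in 6 of 6, and the fibroblast list was lower in 11 of 11. The summed XEN-like level was 1548 and 1448 TPM with Rxra OE against 268 and 308 in CTR, and the summed fibroblast level 587 and 584 against 1386 and 1542. Sums of other markers were higher as well as deposited, a scale on which the median gene was 0.62 higher. They were 46.8 and 40.8 against 15.3 and 17.5 TPM for 5 neural markers, with 2 of 2 tested called higher. For 4 muscle markers they were 18.2 and 16.5 against 2.12 and 2.02, with 2 of 2 called higher. For 4 endothelial markers they were 13.7 and 13.4 against 5.15 and 5.39, with 1 called higher and 1 lower of 2 tested. Their part in the member changes was not tested.

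Knockdown of Exosc3 separated the members into 3 that fell and 7 that did not pass. Tdh stood at 5.74 and 6.03 TPM in shE3 against 27.1 and 30.8 in shCTR, a log2 change of -2.08 ± 0.08 (adjusted p = 0.000565). Gldc stood at 8.71 and 8.33 TPM against 24.6 and 26.5 (-1.44 ± 0.07, adjusted p = 0.000754). Shmt1 stood at 3.85 and 4.43 TPM against 9.82 and 12.2 (-1.18 ± 0.12, adjusted p = 0.00328). The groups of these 3 lay well apart, and each call was kept without any single library. The 3 serine synthesis genes stayed within the spread of the libraries: Phgdh stood at 33.0 and 34.4 TPM against 34.1 and 35.2 (0.00 ± 0.06, adjusted p = 0.975), and the groups of Psat1 (81.8 and 77.4 against 78.4 and 87.5 TPM) and Psph (14.7 and 17.7 against 15.3 and 17.9 TPM) overlapped too. Gcat, Shmt2, Mthfd1 and Mthfd2 had log2 changes of -0.14, -0.10, -0.21 and -0.15, with adjusted p of 0.0671 to 0.215; Mthfd1 passed with the filter at 5 (-0.24, adjusted p = 0.0415). Of 15700 genes 14.2% were called higher and 13.9% lower, and the median of the members was -0.15 against -0.01 over all genes. At an unadjusted p under 0.05 0 members were higher and 4 lower.

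In shE3, 21 of 22 cell cycle genes, all 9 XEN-like and all 6 epithelial markers were lower, with summed XEN-like levels of 466 and 459 TPM against 846 and 964 in shCTR; their part in the fall of Tdh, Gldc and Shmt1 was not tested. The fibroblast list was not lower as a whole, with 4 higher and 2 lower of 11. Macrophage markers summed to 362 and 357 TPM in shE3 against 140 and 166 in shCTR, with 2 of 5 tested higher and 0 lower. Methionine cycle genes were higher in 1 and lower in 3 of 11, among them Cth (4.01 against 9.70 TPM, -1.06 ± 0.10, adjusted p = 0.00287) and Cbs, which makes cystathionine (2.75 against 6.86 TPM, -1.02 ± 0.12, adjusted p = 0.00486). ATF4 and amino acid response genes were higher in 4 and lower in 10 of 28, with Aldh18a1, a proline synthesis enzyme, at 34.6 against 52.3 TPM (-0.54 ± 0.05, adjusted p = 0.00258). Purine synthesis genes were higher in 4 and lower in 0 of 13, folate genes higher in 3 and lower in 2 of 16, and the other glycine and serine genes higher in 2 and lower in 3 of 11.

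**Figure D1:**
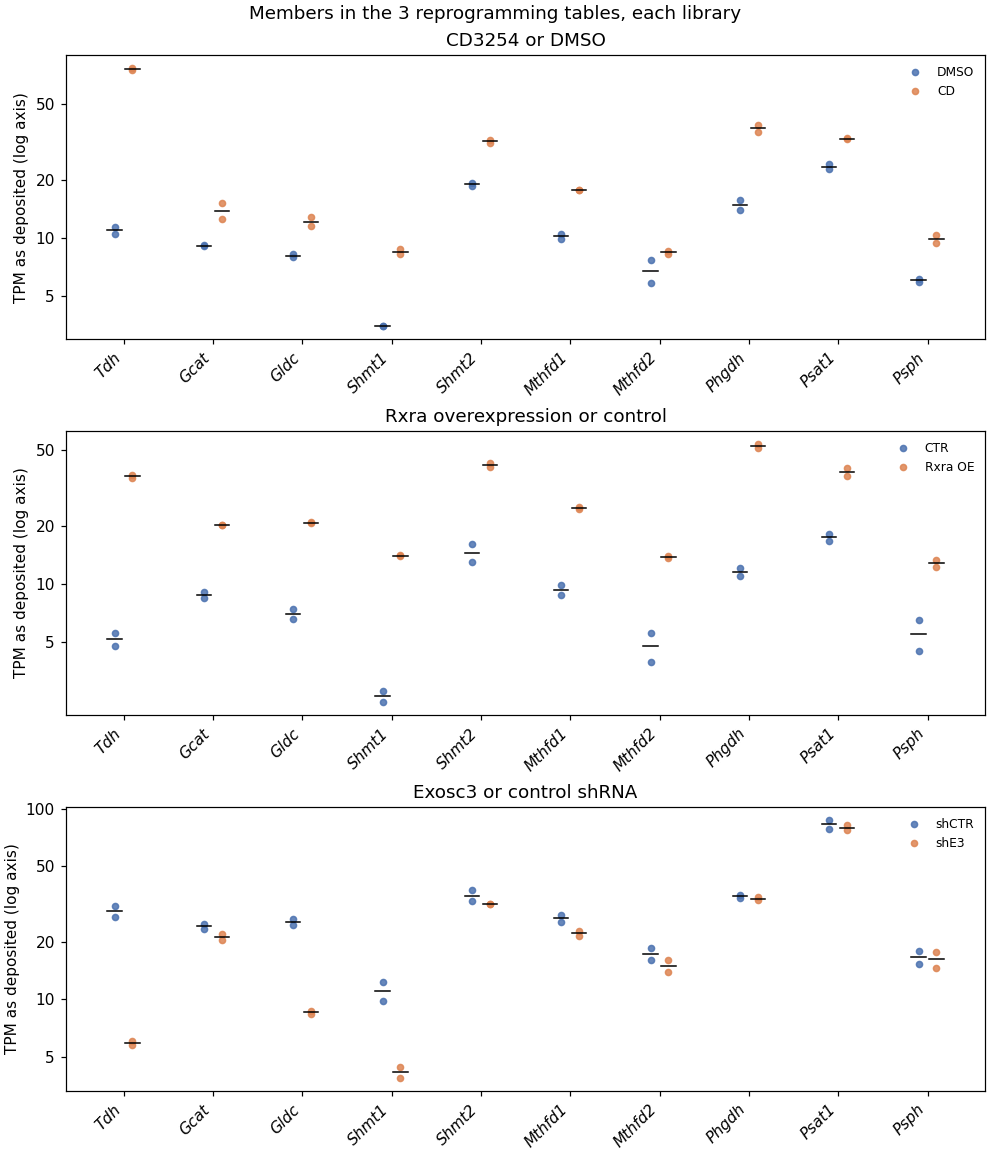
TPM as deposited (log axis) of each member in the CD, Rxra OE and shE3 tables; points are the 2 libraries of a group and bars their mean. Tdh moves furthest in each panel, to a mean of 76.0 TPM with CD and from 5.14 to 36.4 with Rxra OE. With Exosc3 knockdown it moves from 28.9 to 5.88. In the lowest panel the shE3 and shCTR points overlap within each of the serine synthesis genes Phgdh, Psat1 and Psph.

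In the CD and DMSO cultures used for the actinomycin D series, 2 members were higher with CD before the drug. Tdh stood at 160 and 181 CPM in CD and at 58.9 and 70.1 in DMSO (1.23 ± 0.16, adjusted p = 0.0022). Shmt1 stood at 53.6 and 33.0 against 24.0 and 18.3 (0.81 ± 0.22, adjusted p = 0.0342). The groups of both were apart, but the CD libraries of Shmt1 differed by more than the gap between groups, and its call was lost without CD 0 h replicate 1 (0.48, adjusted p = 0.242) and without DMSO 0 h replicate 2 (0.229). The other 8 members lay between -0.06 and 0.25 and did not pass. For Phgdh the libraries were at 93.9 and 112 against 82.3 and 71.7 CPM (0.25 ± 0.12, adjusted p = 0.156). Of 17064 genes 6.77% were called higher and 9.27% lower, and the median was 0.16 for the members and 0.05 for all genes. When only the 4 libraries at 0 h were fitted, Tdh kept its value with an adjusted p of 0.179. The 2 CD libraries at 0 h stood apart from each other, with a summed cell cycle level of 2785 and 1788 CPM and Exosc3 at 41.1 and 14.3.

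Around the pathway at 0 h, 2 of 13 purine synthesis genes were higher with CD and 0 lower, 0 of 16 folate genes higher and 3 lower, 2 of 11 methionine cycle genes higher and 1 lower, 1 of 14 other glycine and serine genes higher and 2 lower, and 5 of 29 ATF4 and amino acid response entries higher and 2 lower. Ddit3 names 2 entries of that list in this table. Aldh1l1 fell here too (49.3 against 74.7 CPM, -0.74 ± 0.11, adjusted p = 0.00393), and Bhmt2, a methionine-forming methyltransferase, rose (20.0 against 9.15, 0.89 ± 0.19, adjusted p = 0.0149). The XEN-like list was higher in 6 of 9 cases and the fibroblast list lower in 8 of 11, with 9 of 22 cell cycle genes higher; their part in the member levels was not tested.

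After transcription was blocked, the members differed in how much RNA was left. In DMSO cultures Tdh stood at 58.9 and 70.1 CPM at 0 h, 63.8 and 67.2 at 4 h, and 19.6 and 19.2 at 8 h. Its level at 4 h lay within the range at 0 h, and at 8 h 30.1% of the 0 h mean was left. Scaled by the ERCC spike-ins, RNAs of known amount added to each sample, 25.1% was left. In CD cultures Tdh stood at 160 and 181, 177 and 176, and 98.8 and 95.9 CPM at the same times, so that 57.1% was left at 8 h by CPM and 44.8% by spike-ins. Tdh fell relative to the median gene between 0 and 8 h in DMSO (-1.26 ± 0.16, adjusted p = 0.00205) and in CD (-0.43 ± 0.16, adjusted p = 0.0364). The call in CD was lost in each fit without one of its 4 libraries (adjusted p of 0.0548 to 0.134) and in edgeR on the recovered reads (0.0659). The difference between the arms, 0.83 ± 0.22, did not pass (adjusted p = 0.33), and over all its alternatives ran from 0.63 to 1.03 with adjusted p of 0.0711 to 0.761.

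Shmt1 was the other member that fell in both arms. It stood at 24.0 and 18.3 CPM at 0 h and 8.70 and 10.9 at 8 h in DMSO, which left 46.3% (-0.64 ± 0.22, adjusted p = 0.0482). In CD it went from 53.6 and 33.0 to 14.8 and 17.8, which left 37.8% (-0.96 ± 0.22, adjusted p = 0.00557), with -0.63 (0.0468) without CD 0 h replicate 1 and -1.29 (0.000456) without CD 0 h replicate 2. The groups of Shmt1 did not overlap as deposited, and the share of all genes without overlap was not counted. Its DMSO change ran from -0.75 to -0.52 in fits without one of the 4 libraries, and the call was lost in each. Mthfd1 kept 82.0% in DMSO and 63.9% in CD by CPM, and 67.1% and 49.4% by spike-ins. Its change in CD did not pass relative to the median gene (-0.27 ± 0.12, adjusted p = 0.0682). It passed as deposited (-0.64, adjusted p = 0.00455) and by spike-ins (-0.97, 0.0127). The change of Shmt2 in CD also passed on these scales (-0.39, 0.0269, and -0.73, 0.0173), as did that of Gldc (-0.30, 0.0482, and -0.64, 0.0354). By spike-ins alone, Mthfd2 (-0.67, 0.0218), Phgdh (-0.58, 0.0263) and Psat1 (-0.52, 0.0435) passed in CD too. The remaining 7 members kept 78.1 to 98.2% in DMSO and 75.9 to 92.6% in CD by CPM, which is 64.3 to 81.0% and 59.3 to 71.9% by spike-ins. Gldc in DMSO is the one member called higher, relative to a median gene that fell by 0.33 as deposited (0.40 ± 0.11, adjusted p = 0.0225), although its libraries overlapped at 96.8 and 87.9 against 86.0 and 95.4 CPM and its sign turned as deposited (-0.026). That call was lost without DMSO 0 h replicate 1 (adjusted p = 0.0839) and without DMSO 8 h replicate 1 (0.175). At 4 h every member except Shmt1 was above its 0 h mean in both arms by CPM, from 102% for Tdh to 153% for Phgdh in DMSO and from 103% for Mthfd1 to 144% for Gcat in CD; CPM are shares of the RNA that remains. By spike-ins, 4 of these 9 were below their 0 h mean at 4 h in CD, with Tdh at 91.6%, Shmt2 at 96.8%, Mthfd1 at 90.1% and Psph at 94.9%. In DMSO all 9 were above it by spike-ins, from 101% for Tdh to 151% for Phgdh. The spike-in percentages are therefore not taken as absolute amounts of RNA left.

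Relative to the median gene, 1 member was thus higher and 2 lower in DMSO, against 17% and 13.4% of 17064 genes. In CD 0 were higher and 2 lower on that scale, against 24.7% and 29.4%. At an unadjusted p under 0.05 in CD 0 were higher and 3 lower, and edgeR and DESeq2 on the recovered reads called 1 and 2 members. For the difference in decay limma called 0 of the 10 members, against 0.00586% of all genes (1 gene), with 2 members at an unadjusted p under 0.05 (Tdh and Mthfd1). EdgeR and DESeq2 called 0 members each, and over all genes 1 and 54. The members' medians were 0.23 in DMSO, 0.04 in CD and -0.20 for the difference, beside 0.01, -0.03 and -0.06 over all genes. Fibroblast markers were higher at 8 h than at 0 h in 7 of 11 cases in DMSO and 8 of 11 in CD, and XEN-like markers lower in 7 of 9 in each arm. Cell cycle genes were lower in 9 of 22 cases in DMSO and 18 in CD, and macrophage markers higher in 3 and 5 of 6. Their part in the member values was not tested.

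Among the pathway lists, relative to the median gene, folate genes were higher at 8 h in 4 and lower in 0 of 16 in DMSO, and higher in 5 and lower in 2 in CD, with Ggh, which trims folate polyglutamates, at 565 against 374 and 451 against 160 CPM (1.05 ± 0.27 and 1.88 ± 0.27). Purine synthesis genes were higher in 1 and lower in 0 of 13 in DMSO, and higher in 2 and lower in 5 in CD, with Ppat, the first committed enzyme, at 9.03 against 54.9 in CD (-1.98 ± 0.38, adjusted p = 0.00356). Methionine cycle genes were higher in 1 and lower in 2 of 11 in DMSO and higher in 1 and lower in 4 in CD. Mat2a, which makes S-adenosylmethionine, was lower in both, at 52.2 against 128 and 90.1 against 216 CPM. The other glycine and serine genes were higher in 2 and lower in 1 of 14 in DMSO and higher in 4 and lower in 2 in CD, and ATF4 and amino acid response entries higher in 6 and lower in 7 of 29 in DMSO and higher in 5 and lower in 14 in CD. The arms were not tested against each other by list, and no gene of these lists passed the test of the difference in decay.

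**Figure D2:**
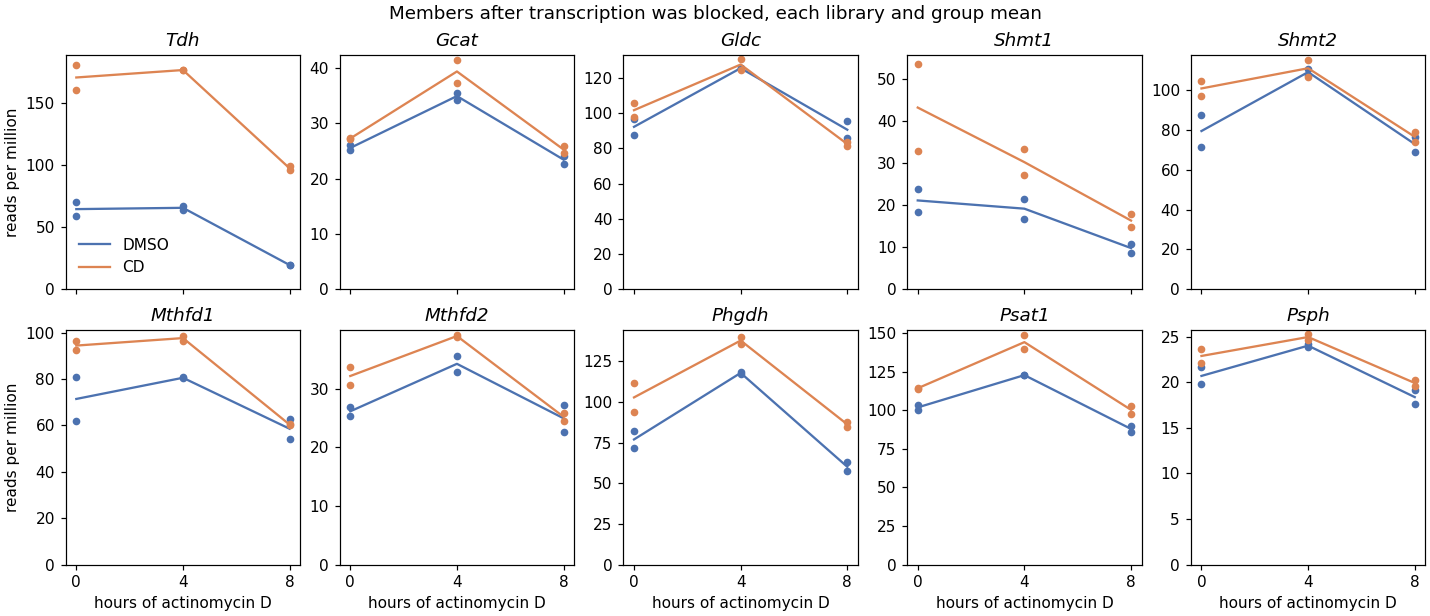
CPM as deposited for each member at 0, 4 and 8 h of actinomycin D; points are libraries and lines join the group means of DMSO and CD cultures. Tdh holds its level to 4 h and then drops, to 19.4 in DMSO and 97.4 in CD, Shmt1 declines to 9.78 and 16.3, and most other members peak at 4 h.

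Between fibroblasts and pluripotent cells the members parted further. In MEF Tdh was listed at 0 TPM in both libraries and Gldc at 0.0783 and 0.167 TPM, while Phgdh stood at 360 and 405 TPM and was the most abundant member. In R1 stem cells Tdh stood at 343 and 365 TPM and was the most abundant member, while Phgdh stood at 93.2 and 113. Tdh passed the test against MEF in every comparison, and no fold is given because it is listed at 0 there. R1 cells against MEF held 5 members higher and 2 lower. Gldc was higher (47.5 and 52.6 TPM, 5.41 ± 0.12, adjusted p = 9.43e-08), Shmt1 too (90.4 and 90.5 against 12.4 and 11.2 TPM, 2.79 ± 0.12, adjusted p = 1.59e-06), and Mthfd1 stood at 195 and 209 against 31.6 and 29.3 TPM (2.64 ± 0.09, adjusted p = 6.55e-07). Gcat rose by 0.76. Phgdh was lower by a log2 change of -1.93 ± 0.12 (adjusted p = 6.58e-06) and Psat1 by -0.63 ± 0.10 (adjusted p = 0.000742). The mitochondrial folate enzymes Shmt2 (0.10 ± 0.11) and Mthfd2 (0.02 ± 0.08) did not pass, nor did Psph (0.06 ± 0.16). Of 17414 genes 35.1% were called higher and 33.8% lower, so the counts themselves lie near the background, and the median of the members was 0.43 against 0.07 over all genes.

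DMSO iPSC against MEF gave 5 members higher and 3 lower, beside 34.6% and 33.8% of genes, and CD iPSC against MEF 7 higher and 1 lower, beside 35.3% and 34.1%. These comparisons and the one with R1 share the MEF libraries. Tdh, Gcat, Gldc, Shmt1 and Mthfd1 were higher in each. Gldc reached 48.2 and 45.5 TPM in DMSO iPSC and 74.0 and 66.5 in CD iPSC, and Mthfd1 167 and 172 and 175 and 149. Shmt1 reached 81.6 and 82.5 TPM in DMSO iPSC and 58.5 and 44.5 in CD iPSC. Phgdh was lower in each, by -1.76 ± 0.12 in DMSO iPSC and -0.69 ± 0.12 in CD iPSC. The serine synthesis enzymes after it differed: Psat1 was lower in DMSO iPSC (-0.45 ± 0.10, adjusted p = 0.00416) and did not pass in CD iPSC (0.15 ± 0.10), while Psph did not pass in DMSO iPSC (-0.37 ± 0.16; as deposited -0.51, adjusted p = 0.0153) and was higher in CD iPSC (0.71 ± 0.16, adjusted p = 0.00474). Mthfd2 was lower in DMSO iPSC (-0.23 ± 0.08, adjusted p = 0.0453) and higher in CD iPSC (0.51 ± 0.08, adjusted p = 0.00113), and the first of these calls was lost without DMSO iPSC replicate 1, without replicate 2 and without MEF replicate 2 (adjusted p of 0.0718 to 0.142), with the replicate block (0.0838) and with the filter at 5 (0.0554). The call for Gcat in DMSO iPSC (0.43 ± 0.11, adjusted p = 0.00906) was lost as deposited (0.30, 0.0614) and without DMSO iPSC replicate 1 (0.0504). Shmt2 stood at 142 to 190 TPM in all 8 libraries of the table and did not pass in any comparison there. The members' medians were 0.24 and 1.07 beside 0.08 over all genes in both comparisons.

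Among the pathway genes outside the members, the purine and methionine lists were called higher more often than the 34.6 to 35.3% of all genes, and the glycine and serine and folate lists lay nearer to that share. Purine synthesis genes were higher in 12 of 13 cases in R1, 11 in DMSO iPSC and 12 in CD iPSC, with 1, 1 and 0 lower, and Gart stood at 259, 229 and 269 TPM against 48.2 in MEF. The aminomethyltransferase Amt, which works with Gldc in glycine cleavage, stood at 70.7, 64.0 and 81.2 TPM against 2.54 (log2 changes 4.29, 4.33 and 4.60, each ± 0.13), among other glycine and serine genes that were higher in 5, 5 and 4 and lower in 7, 6 and 7 of 13. Among 16 folate genes, 5, 5 and 6 were higher and 4, 4 and 6 lower. Aldh1l2, the mitochondrial formyl-folate dehydrogenase, fell to 0.622, 1.02 and 0.763 TPM from 49.7. Methionine cycle genes were higher in 9, 7 and 8 of 13 and lower in 1, 1 and 0, with Cbs at 21.6, 13.2 and 20.5 TPM against 0.146. ATF4 and amino acid response genes were lower in 22, 22 and 14 of 28 and higher in 2, 3 and 3, and Atf5, a transcription factor of that response, stood at 17.5, 24.1 and 13.3 TPM against 518. Cell cycle genes were higher in 22, 20 and 21 of 22.

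The cell type labels could be checked against markers in the same table. All 8 pluripotency markers were higher than in MEF in R1 and both iPSC groups, and in MEF 6 of the 8 were at 0 in both libraries and their sum was 0.491 and 0.700 TPM. Fibroblast markers summed to 20746 and 19876 TPM in MEF, and macrophage markers to 1021 and 1218, with 0 of 6 at 0. In the reprogramming cultures pluripotency markers summed to 4.74 and 5.36 TPM with CD against 2.50 and 2.65 with DMSO. With Rxra OE they summed to 5.27 and 5.01 TPM against 1.12 and 0.787 in CTR. In shE3 they summed to 3.98 and 3.03 against 3.67 and 4.06 in shCTR. Before actinomycin D they summed to 33.3 and 21.8 CPM with CD against 12.6 and 6.24 with DMSO. Of those tested, 2 of 3 were higher and 1 lower with CD, and 2 of 2 higher with Rxra OE. In shE3 1 of 2 was higher, and before actinomycin D 2 of 4, with 0 lower in both. Their part in the member changes was not tested. XEN-like markers summed to 657 and 585 TPM in MEF, where 4 of the 9 were at 0. Endothelial, muscle and neural markers summed to at most 84.4, 18.2 and 78.9 TPM in any library of the TPM tables.

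**Figure D3:**
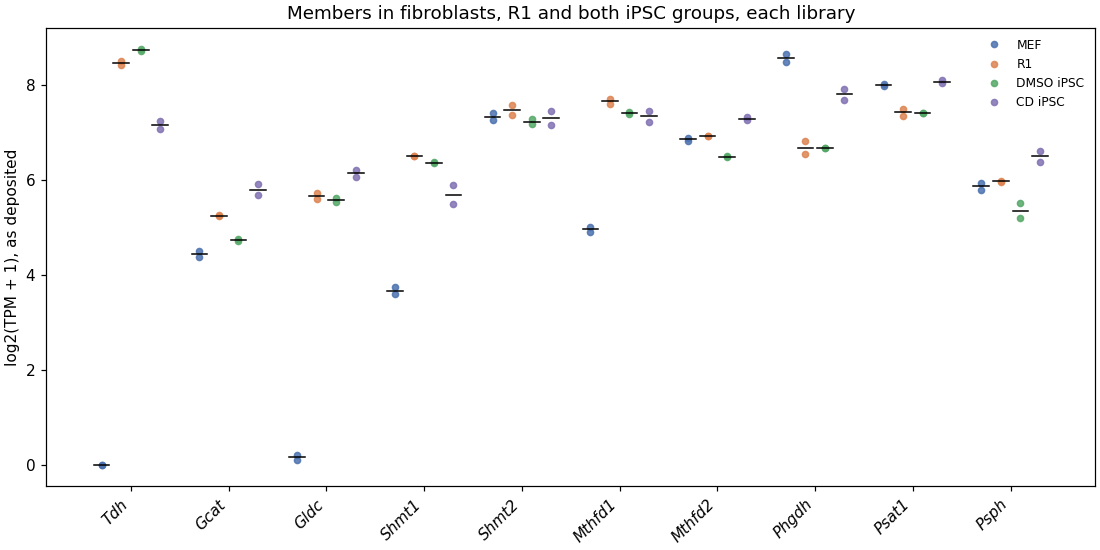
Level of each member as log2(TPM + 1), as deposited, in MEF, R1, DMSO iPSC and CD iPSC; points are libraries and bars group means. Tdh and Gldc sit at or near 0 in MEF, Phgdh is highest in MEF, and CD iPSC lie below DMSO iPSC for Tdh and Shmt1 and above them for the 3 serine synthesis genes and Mthfd2.

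The 2 iPSC groups differed in 8 of the 10 members. Tdh stood at 151 and 134 TPM in CD iPSC and at 424 and 437 in DMSO iPSC (-1.66 ± 0.09, adjusted p = 9.85e-05). Shmt1 was lower as well (-0.74 ± 0.12, adjusted p = 0.0037). The 3 serine synthesis genes were higher in CD iPSC: Phgdh stood at 243 and 207 against 101 and 101 TPM (1.08 ± 0.12, adjusted p = 0.000777), Psat1 at 277 and 263 against 170 and 170 (0.59 ± 0.10, adjusted p = 0.00328) and Psph at 83.1 and 97.9 against 35.8 and 45.1 (1.08 ± 0.16, adjusted p = 0.00223). Gcat rose by 0.99 ± 0.11, Mthfd2 by 0.74 ± 0.08 and Gldc by 0.51 ± 0.12, and the call for Gldc was lost without DMSO iPSC replicate 2 (adjusted p = 0.0768) and at a pseudocount of 0.1 (0.0905). No group of these 8 overlapped as deposited, and the share of all genes without overlap was not counted. Shmt2 (0.00 ± 0.11) and Mthfd1 (-0.13 ± 0.09) did not pass and their libraries overlapped. Of 17414 genes 17.9% were called higher and 20.7% lower, and the median was 0.55 for the members against -0.03 for all genes. Whether each iPSC group was 1 line or more is not in the labels, so line and treatment cannot be told apart.

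Set against R1 cells, CD iPSC differed in the same 8 members and the same directions, with 6 higher and 2 lower beside 10.3% and 12.5% of genes; the 2 comparisons share the CD iPSC libraries. Phgdh changed by 1.25 ± 0.12 (adjusted p = 0.00114), Psat1 by 0.77 ± 0.10 (adjusted p = 0.00286), Psph by 0.65 ± 0.16 (adjusted p = 0.0261) and Tdh by -1.19 ± 0.09 (adjusted p = 0.000555). The call for Psph was lost without CD iPSC replicate 2, R1 replicate 1 or R1 replicate 2 (adjusted p of 0.0873 to 0.128) and with no filter (0.0512). Gldc, Mthfd2 and Shmt1 lost theirs without either R1 library (0.0516 to 0.083), Gldc also at a pseudocount of 0.1 (0.0784), and Gcat without R1 replicate 2 (0.0576). With only the 2 groups fitted, Tdh and Phgdh passed and the other 6 had adjusted p of 0.0536 to 0.0949. DMSO iPSC against R1 gave 1 member higher and 0 lower, beside 9.31% and 7.22% of genes. That member was Tdh, at 424 and 437 against 343 and 365 TPM (0.47 ± 0.09, adjusted p = 0.0145), a call lost in each fit without one of the 4 libraries (adjusted p of 0.0744 to 0.103) and as deposited (0.28, adjusted p = 0.085). As deposited the calls were other members, all lower in DMSO iPSC: Gcat (-0.51, adjusted p = 0.027), Mthfd2 (-0.43, 0.0144) and Psph (-0.62, 0.025), so the direction of the calls depended on the scaling. At an unadjusted p under 0.05 limma gave 1 higher and 3 lower. The members' medians were 0.55 against R1 for CD iPSC and 0.00 for DMSO iPSC, beside 0.00 and 0.01 over all genes.

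ATF4 and amino acid response genes were the pathway list most often higher in CD iPSC, in 13 of 28 cases against DMSO iPSC (3 lower) and 15 of 28 against R1 (0 lower), with medians of 0.39 and 0.57 beside -0.03 and 0.00 over all genes. Ddit4, an inhibitor of mTORC1 signalling, stood at 253 TPM in CD iPSC, 44.1 in DMSO iPSC and 72.9 in R1 (2.43 ± 0.15, adjusted p = 0.00013, and 1.90 ± 0.15, adjusted p = 0.000748). Ddit3, a stress transcription factor, stood at 59.0, 12.8 and 18.3 TPM. In DMSO iPSC against R1 the same list was higher in 3 and lower in 1. Folate genes were higher in 2 and lower in 6 of 16 in CD iPSC against DMSO iPSC and higher in 1 and lower in 4 against R1, among them Slc19a1, the reduced folate carrier (13.8 against 21.0 and 24.4 TPM). DMSO iPSC against R1 had 1 higher and 0 lower. Mat2a stood at 127 TPM in CD iPSC against 344 in DMSO iPSC and 265 in R1, in a methionine cycle list that was higher in 4 and lower in 1 of 13 against DMSO iPSC and higher in 3 and lower in 3 against R1. Purine synthesis genes were higher in 3 and lower in 5 of 13 against DMSO iPSC and higher in 0 and lower in 3 against R1. The other glycine and serine genes were higher in 2 and lower in 1 of 13 against DMSO iPSC and higher in 2 and lower in 2 against R1. DMSO iPSC against R1 counted 2 higher and 3 lower, 2 and 1, and 0 and 1 in these 3 lists. Pluripotency markers were higher in 2 and lower in 5 of 8 in CD iPSC against DMSO iPSC, fibroblast markers lower in 7 of 11 (117 and 107 against 262 and 261 TPM summed), and macrophage markers lower in 2 of 6 (53.0 and 55.7 against 81.3 and 90.8 TPM). Neural markers were lower in 3 of 5 cases (20.5 and 18.8 against 66.4 and 78.9 TPM), and endothelial markers, with 1 higher and 1 lower of 2 tested, summed to 84.4 and 79.7 against 37.3 and 39.9 TPM. Their part in the member differences was not tested.

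**Figure D4:**
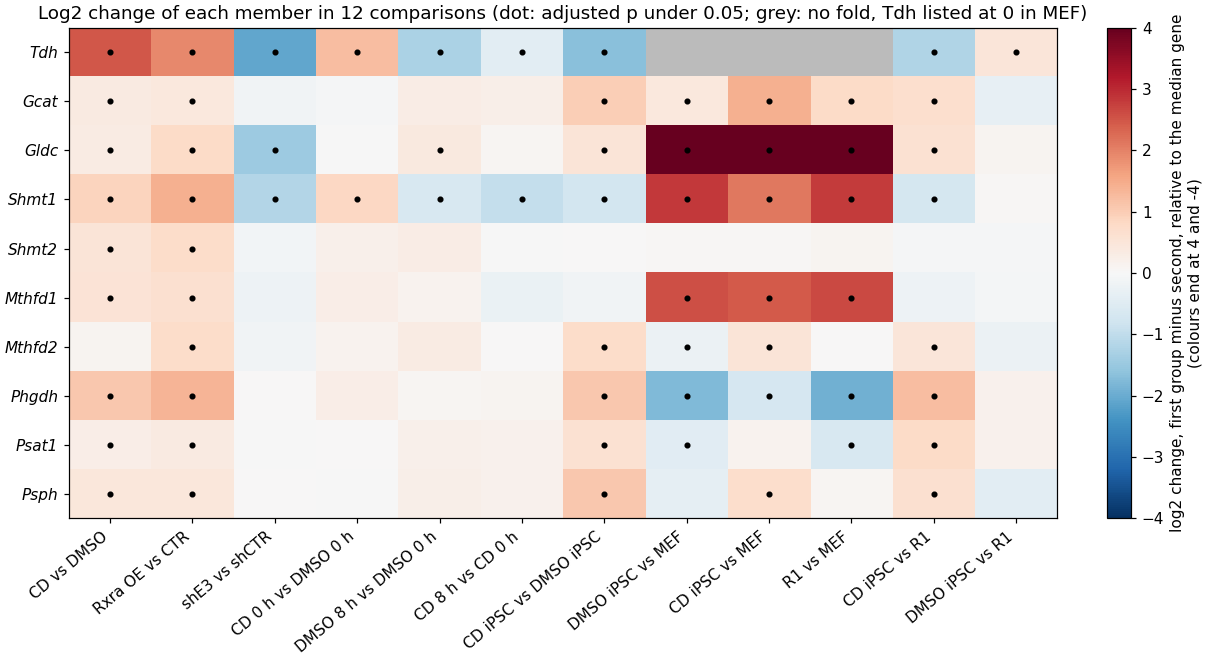
Log2 change of each member relative to the median gene in 12 comparisons (colour scale from -4 to 4), with a dot where the adjusted p was under 0.05 and grey where Tdh was listed at 0 in MEF. Tdh and Shmt1 change in the same direction in all columns where both are called, and Phgdh is higher with CD, with Rxra OE and in CD iPSC against DMSO iPSC and R1 but lower in every comparison with MEF.

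The cytosolic and mitochondrial forms of the folate enzymes were compared as ratios of TPM within each library. The ratio of Shmt2 to Shmt1 was 12.3 and 15.1 in MEF, 1.77 and 1.88 in DMSO iPSC, 1.84 and 2.1 in R1 and 2.98 and 3.2 in CD iPSC. Its libraries in MEF were apart from all others in that table, and those of DMSO iPSC and R1 overlapped. The ratio stood at 5.53 and 5.35 with DMSO and 3.80 and 3.70 with CD, at 5.40 and 5.79 in CTR and 3.08 and 2.90 with Rxra OE, and at 8.22 and 7.10 in shE3 against 3.33 and 3.04 in shCTR. Groups of 2 libraries allow no permutation test below 0.05, so these ratios are a description. The ratio of Mthfd2 to Mthfd1 stood at 3.59 and 4.05 in MEF and below 1 in R1 (0.622 and 0.578) and DMSO iPSC (0.535 and 0.523), with CD iPSC between them at 0.909 and 1.04. In the reprogramming tables it lay between 0.447 and 0.779, and the groups overlapped in the Rxra OE and shE3 tables.

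**Figure D5:**
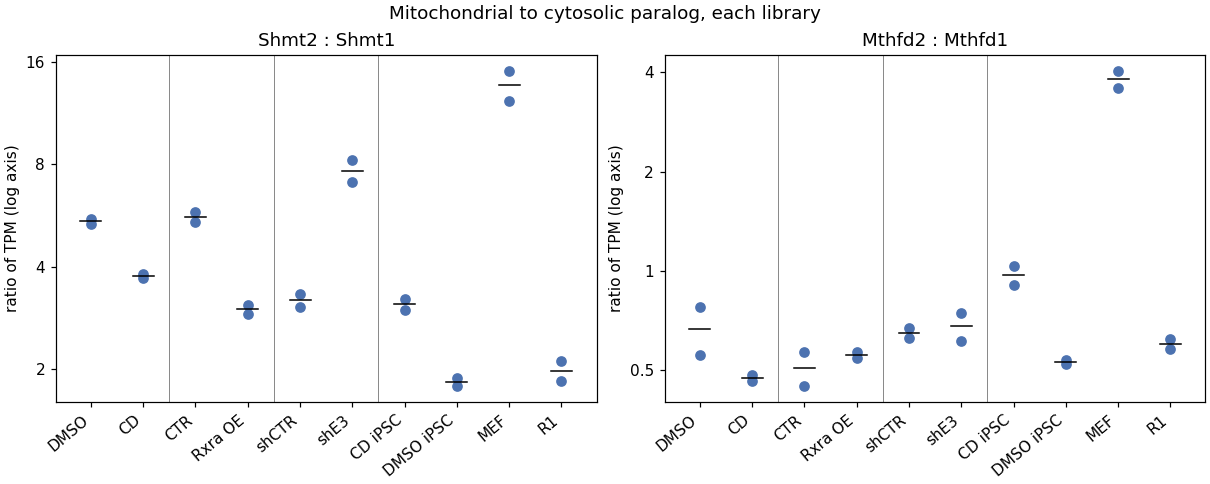
Ratio of TPM of the mitochondrial to the cytosolic enzyme in each library (log axis), for Shmt2 over Shmt1 and Mthfd2 over Mthfd1; points are libraries, bars group means and grey lines separate the 4 TPM tables. MEF hold the highest ratios, with means of 13.7 and 3.82, and CD iPSC lie above DMSO iPSC and R1 in both.

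Across the 16 groups some members moved together. With group means centred within each table, Pearson's r was 0.90 between Tdh and Gldc, 0.95 between Tdh and Shmt1, 0.94 between Tdh and Mthfd1 and 0.96 between Gldc and Mthfd1. It was 0.87 between Phgdh and Psat1, 0.89 between Mthfd2 and Psph and 0.84 between Mthfd2 and Psat1. It was -0.33 for Tdh with Phgdh and -0.38 for Gldc with Phgdh. Gcat correlated with Gldc and Mthfd1 (0.69 each) and followed Psph (0.86) and Mthfd2 (0.84) more closely than its pathway partner Tdh (0.53). Shmt2 followed Mthfd2 (0.81) more than its paralog Shmt1 (0.42). These are descriptions without a test: groups share tables and libraries' depth, and the step from MEF to pluripotent cells weighs heavily. Of the 11889 genes tested in all 5 tables, members left out, those most like Tdh were Aqp3 (0.99), Dsg2 (0.99) and Lin28a (0.99), those most like Phgdh were C1qtnf12 (0.94), Galnt3 (0.94) and Arf5 (0.93), and those most like Mthfd2 were Mapk13 (0.92), Mrps36 (0.91) and Tpi1 (0.90).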

How the data were processed

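RNA-seq libraries of 16 groups (2 each) were analysed in 5 tables. Per the submitters' processing notes, fastp 0.20.1, HISAT2 2.1.0, StringTie 2.0 and the build mm10 were used, with options not given in the sources used here. TPM were deposited by the authors for all but the actinomycin D series. The actinomycin D table, whose unit is not named per the file headers, was deposited as a signal that proved to be CPM (library-scaled reads): 99.973 to 99.996% of values gave whole reads within a tolerance of 0.001. Gene symbols came from GENCODE M21 (55141 of 55401 genes named) and promoters from RefSeq (GRCm38.p6).

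Within each table, size factors (the median over genes of a library's ratio to the geometric mean) were divided out, after which limma 3.58.1 (R 4.3.3; eBayes with trend, 2-sided) was run on log2(value + 1) of genes that reached 1 in 2 or more libraries, repeat families and spike-ins left out, with no replicate block. The scale understates changes of low genes. The CD, Rxra OE and shE3 tables were fitted alone; in the other tables all groups of a table shared 1 estimate of the spread, and the difference in decay was the interaction of arm and time. Alternatives were the deposited scale, scaling to nuclear totals, a pseudocount of 0.1, no filter, a filter at 5, the replicate block, the compared groups only, spike-in scaling, edgeR 4.0.16 and DESeq2 1.42.0 on recovered reads, and leaving out each library. The limma fit was also run on simulated libraries with independent noise. These lacked the shared deviations between libraries seen here, and no result rests on them. Python 3.11.15, pandas 2.3.3, numpy 2.4.6 and matplotlib 3.10.9 were also used.

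The members and lists (other glycine and serine genes, folate cycle, methionine cycle, purine synthesis, ATF4 and amino acid response, cell cycle, cell type markers) were chosen with earlier results of these data known. Named genes are the 10 members, Rxra and Exosc3 in their own tables (Exosc3 at 0 h was added after its values were seen), up to 3 genes of a list per comparison with the smallest p, and the 3 genes most correlated with Tdh, Phgdh and Mthfd2.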

Additional observations from a re-analysis of the deposited data

Results flagged for a closer look

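On libraries rescaled to the median gene, CD against DMSO gave opposite, non-overlapping differences for 4 members in different tables. How many of all genes did so was not counted, so these 4 are only a description. For Mthfd1 and Gcat the pattern did not hold as deposited. The differences between tables were not tested, and the tables were normalized apart. Tdh was higher with CD in reprogramming cultures (2.48 in the CD table, 1.23 before actinomycin D) and lower in CD iPSC than in DMSO iPSC (-1.66). Shmt1 did the same (0.90 and 0.81 against -0.74). Mthfd1 stood at 0.56 and 0.25 against -0.13, where the last 2 did not pass and the iPSC libraries overlapped as deposited (175 and 149 against 167 and 172 TPM). Gcat stood at 0.35 in the CD table and 0.99 between iPSC groups against -0.062 before actinomycin D, which did not pass and was 0.091 as deposited, the same direction as in the other tables.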

How the results depend on the processing

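Of 1580 values of single members under an alternative, 1378 kept direction and side of the threshold, 63 fell short of it, 20 newly passed, 110 turned sign without passing in either setting and 9 turned sign with a call in 1 of them. The 110 lie in every comparison but Rxra OE vs CTR. The 9 lie in the 8 h against 0 h comparisons, where the median gene itself fell by 0.33 and 0.34 as deposited and by 0.53 and 0.64 by spike-ins. For Gldc, DMSO 8 h vs DMSO 0 h, the value was -0.026 as deposited, -0.028 by nuclear totals and -0.29 by spike-ins, and for Phgdh, DMSO 8 h vs DMSO 0 h, -0.61 by spike-ins. For Gldc, CD 8 h vs CD 0 h, it was -0.30 as deposited and -0.64 by spike-ins, and by spike-ins Mthfd2, CD 8 h vs CD 0 h, was -0.67, Phgdh, CD 8 h vs CD 0 h, -0.58 and Psat1, CD 8 h vs CD 0 h, -0.52.

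Members called of 10 moved as follows; the cause was not tested. For CD 0 h vs DMSO 0 h they went from 2 to 1 (no filter), 0 (compared groups only) and 1 (spike-ins), and 1 to 3 without single libraries (1 without CD 0 h replicate 1 or DMSO 0 h replicate 2). For DMSO 8 h vs DMSO 0 h they went from 3 to 1 (compared groups only) and 1 to 3 (1 without replicate 1 of DMSO 0 h or DMSO 8 h). For CD 8 h vs CD 0 h they went from 2 to 5 (as deposited), 4 (nuclear totals), 8 (spike-ins), 1 (no filter), 1 (replicate block), 1 (compared groups only) and 1 (edgeR), and 1 in each fit without 1 of the 4 libraries. For CD iPSC vs R1 they went from 8 to 2 (compared groups only) and 3 to 8 (4 without R1 replicate 1, 3 without R1 replicate 2). For DMSO iPSC vs R1 they went from 1 to 3 (as deposited), 4 (nuclear totals), of which 3 and 3 were lower, and 0 in each fit without 1 of the 4 libraries. Elsewhere the counts stayed within 1.5 times.

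Over all genes, the calls of shE3 vs shCTR went from 4410 to 2695 (as deposited), 2384 (no filter) and 2129 to 2868 without single libraries; CD 0 h vs DMSO 0 h from 2736 to 1139 (no filter), 0 (compared groups only), 4192 (DESeq2), 288 (spike-ins) and 301 (without DMSO 0 h replicate 2) to 6606 (without CD 0 h replicate 2); DMSO 8 h vs DMSO 0 h from 5182 to 2747 (no filter), 2335 (compared groups only), 3027 (spike-ins) and 383 (without DMSO 8 h replicate 1) to 6143. CD 8 h vs CD 0 h went from 9231 to 4147 (without CD 0 h replicate 1) to 10040, CD iPSC vs DMSO iPSC went from 6730 to 3968 (compared groups only) and 4199 (without DMSO iPSC replicate 2) to 6628, CD iPSC vs R1 from 3971 to 578 (compared groups only) and 1299 (without R1 replicate 2) to 3635, and DMSO iPSC vs R1 from 2879 to between 791 and 892 in each fit without a library. The difference in decay had 1 gene called, 0 by nuclear totals or spike-ins, 54 in DESeq2 and 52 without CD 0 h replicate 2.

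The labels tie no replicate numbers together, and same-numbered libraries did not deviate together throughout (r of -0.73 to 0.55). The r of 0.55 is that of CD 0 h with DMSO 0 h, where the block kept the calls of Tdh (adjusted p = 0.00623) and Shmt1 (0.0484) for CD 0 h vs DMSO 0 h. The replicate block ended the calls of Mthfd2, DMSO iPSC vs MEF (adjusted p = 0.0838), Shmt1, DMSO 8 h vs DMSO 0 h (0.0632) and Tdh, CD 8 h vs CD 0 h (0.0506), brought Psph, DMSO iPSC vs MEF, past the threshold (0.0483) and changed no other member's call. Crossing the numbers, added after seeing r of -0.11 and -0.14 in the CD and Rxra OE tables, left 9 and 10 members called. Depth is unknown for TPM and p-values rest on 2 libraries a group.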
